A study of Mus musculus with 25 samples.

Results

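Oscillibacter is a genus of strictly anaerobic gut clostridia in the family Oscillospiraceae. In the deposited table of bacterial 16S rRNA gene sequences from mouse feces it was represented by 32 of 1555 amplicon sequence variants (ASVs, distinct sequences left after error removal), and these held 3021 of 300831 counts, or 1.00%. The members were selected by name, as every ASV whose genus field read Oscillibacter. The genus itself was chosen from the presence and share of its ASVs across the libraries, because some of them appeared to stand in for each other. The ASV values below are therefore a description, and no test of them is offered as support.

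The study sequenced full-length 16S rRNA genes of fecal bacteria from C57BL/6 mice on a PacBio instrument, with 5 groups and 5 libraries in each. Sham is the usual name of control animals operated without removal of the ovaries, and OVX is short for ovariectomy, the model of estrogen deficiency in the design text. The other groups carry OVX with an addition: GEX (OVX+GEX), which the labels do not spell out and which may be the traditional medicine that the design text mentions, PBS (OVX+PBS), a buffered saline, or FMT (OVX+FMT), fecal microbiota transplantation. Ages, doses, times, cages and transplant donors are not in the labels, and their sex field reads male for all samples, which is at odds with ovariectomy, so no sex is stated here. Table columns were assigned to groups by their names. For OVX+GEX the columns are spelled OVX+GES, and the order of the groups differs between table and labels, so every statement on a single group rests on those names. Library totals ran from 8498 to 22404 counts with a median of 10123. A count of 0 was set against a floor of 3 counts of the library's total, a share of 0.0134% to 0.0353%. No value in the table was 1, so a 0 may also hide a single read, and the share it allows may lie above that floor. Intervals and floors cover counting error only, and since no label says that the libraries of a group came from separate cages or litters, the tests see only the spread among the libraries.

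Oscillibacter cells are motile rods that ferment sugars, and the type species, Oscillibacter valericigenes, is known for making valeric acid, a short-chain fatty acid. Relatives of the genus are regular members of the mouse cecal and fecal community. A bacterium can carry several copies of the 16S rRNA gene that differ slightly, so an ASV marks a gene sequence and not necessarily a strain. All 32 ASVs bore the same species name, Oscillibacter valericigenes, which is the name of the nearest relative in a reference database that no source used here names. The ASVs are told apart below by the numbers of the deposited table, since that table pairs no sequence with them.

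The members were unevenly distributed. ASV_56 held 793 counts, ASV_66 held 695, ASV_81 held 521 and ASV_102 held 392, and together these 4 made up 79.5% of all counts of the genus. No ASV was found in every library: ASV_102 came closest with 19 of 25, followed by ASV_226 with 17, ASV_56 with 13, ASV_66 and ASV_299 with 12 each, ASV_81 with 10, ASV_227 with 7 and ASV_641 with 6. Those 8 ASVs also made up the set that passed the filter for low values (5 or more libraries with 3 or more counts), and they held 92.2% of the genus. Of the remaining 24 ASVs, 9 were seen in 2 to 4 libraries and 15 in 1 library. The 15 had 2 to 12 counts each and 69 in all, 2.28% of the genus. ASVs of 1 library made up 46.9% of the members, against 39.1% of all ASVs of the table. A library held 2 to 9 Oscillibacter ASVs, with a median of 5.

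ASV_56 and ASV_66 were never found in the same library. Each of the 25 libraries held exactly 1 of the pair: 13 held ASV_56, 12 held ASV_66 and 0 held both. Their sum made up a median of 50.4% of the genus counts of a library, ranging from 3.03% to 93.8%. The plot of the counts of the 12 most abundant ASVs shows their rows as complements.

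**Figure D1:**
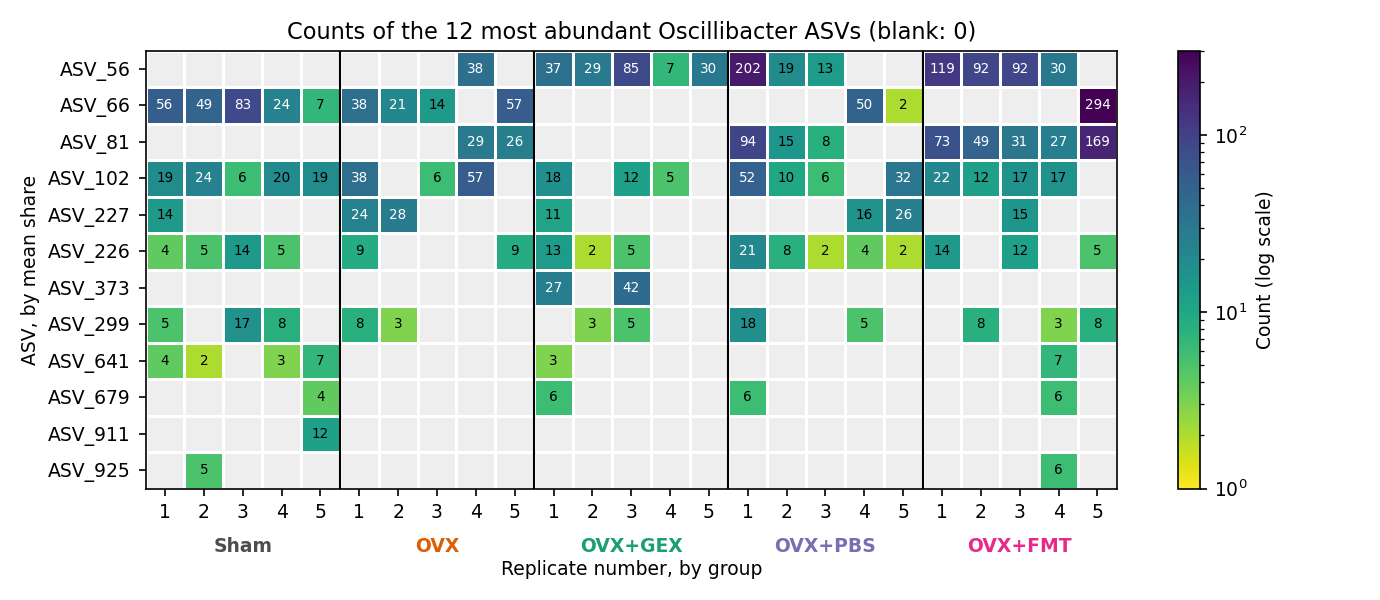
Counts of the 12 Oscillibacter ASVs with the highest mean share (rows) in the 25 libraries (columns, 5 per group, numbered by replicate); colour gives the count on a log scale and blank cells are 0. ASV_56 is filled in 13 columns and ASV_66 in the other 12, with no column holding both, while ASV_102 is filled in 19.

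In the Sham group the ASV of the pair that was present was ASV_66. It had 56, 49, 83, 24 and 7 counts in Sham replicates 1 to 5, a share of 0.0691% to 0.575% with a median of 0.478%. ASV_56 was at 0 in all 5 Sham libraries. In OVX, ASV_66 had 38, 21, 14, 0 and 57 counts in replicates 1 to 5, and ASV_56 had 38 counts in replicate 4 alone. So 4 of 5 OVX libraries resembled Sham in this pair, and OVX replicate 4 held ASV_56 instead. In OVX+GEX the picture was the opposite of Sham. ASV_56 had 37, 29, 85, 7 and 30 counts in replicates 1 to 5, a share of 0.0824% to 0.957% with a median of 0.291%, and ASV_66 was at 0 in all 5 libraries. The Sham and OVX+GEX libraries did not overlap for either ASV. Among all 379 ASVs that passed the filter, 13 (3.43%) had shares that did not overlap between these groups, and ASV_56 and ASV_66 were the 2 of the 8 Oscillibacter ASVs among them. Since these values chose the genus, nothing is read from that count. OVX and OVX+GEX overlapped for both ASVs because of OVX replicate 4.

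The OVX+PBS and OVX+FMT groups were mixed. In OVX+PBS, ASV_56 had 202, 19 and 13 counts in replicates 1 to 3 and 0 in replicates 4 and 5, where ASV_66 had 50 and 2 counts. The count of 2 in OVX+PBS replicate 5, 0.0226% of that library (Wilson 95% interval 0.00621% to 0.0825%), is the weakest detection of the pair and equals the smallest value above 0 in the table. In OVX+FMT, ASV_56 had 119, 92, 92 and 30 counts in replicates 1 to 4, and ASV_66 had 294 counts in replicate 5. That last value, 1.49% of the library (Wilson 95% interval 1.33% to 1.67%), was the highest share of any Oscillibacter ASV in the series. ASV_56 was thus present in 0 of 5 Sham libraries, 1 of 5 OVX, 5 of 5 OVX+GEX, 3 of 5 OVX+PBS and 4 of 5 OVX+FMT libraries.

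**Figure D2:**
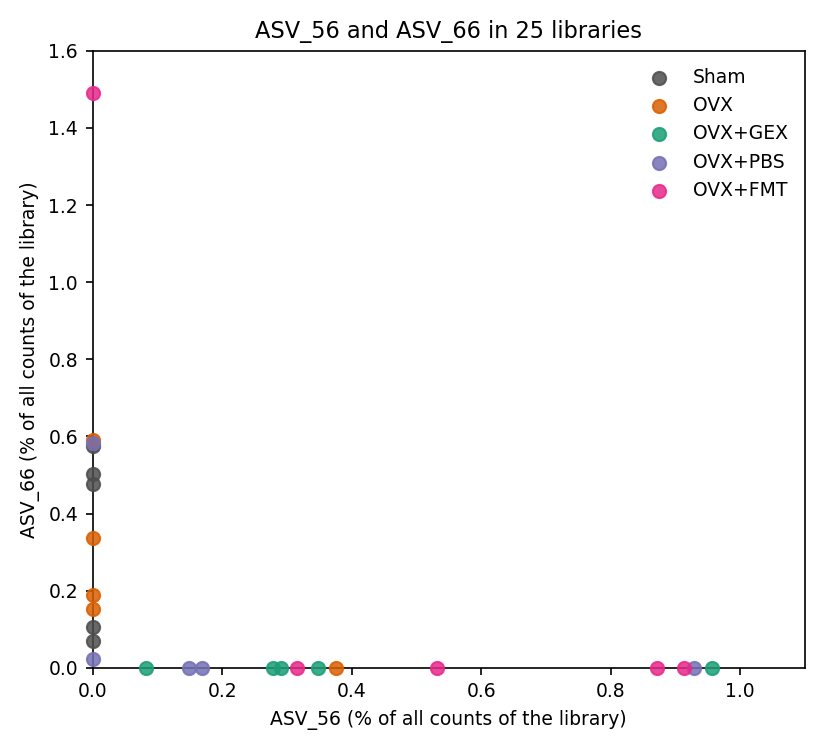
Share of ASV_56 (x axis) against share of ASV_66 (y axis), each in percent of all counts of a library, with 1 point per library and colours for the 5 groups. All 25 points lie on an axis; the 5 Sham points lie on the ASV_66 axis, the 5 OVX+GEX points on the ASV_56 axis, and OVX+FMT replicate 5 stands highest at 1.49%.

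The sizes behind these zeros can be given as bounds, set against a floor of 3 counts per library. Each "at least" holds only on that floor. Since a 0 may also hide a single read, the bounds may be too high. ASV_56 averaged 0.391% ± 0.332 in OVX+GEX (SD, n = 5), at least 16.1-fold higher than in Sham. OVX+GEX replicate 3 (0.957%) weighed on this value, and without it the mean was 0.250% and the bound 10.3-fold. In OVX+FMT it averaged 0.527% ± 0.384, at least 21.6-fold higher than in Sham. ASV_66 averaged 0.346% ± 0.239 in Sham and 0.254% ± 0.223 in OVX, at least 11.2-fold and 8.19-fold higher than in OVX+GEX. These bounds describe group means that hide libraries at 0, such as OVX replicate 4 for ASV_66 and OVX+FMT replicate 5 for ASV_56.

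How often pairs of ASVs were never found together in the whole table was counted over ASVs seen in at least 5 libraries. There were 407 of these, forming 82621 pairs, and 2843 pairs (3.44%) were never found in the same library. Of all these pairs, 1 split the 25 libraries so that each held exactly 1 partner, and it was ASV_56 with ASV_66. Only pairs whose library numbers add up to 25 could do so. The presence of these ASVs also chose the genus, so nothing is read from that rank. Relaxing the requirement to 23 of 25 libraries gave 7 pairs in all, of which ASV_56 with ASV_66 was again the 1 pair within a genus. The other pairs of frequent Oscillibacter ASVs each shared a library. Among the 28 pairs formed by the 8 frequent members, 1 was never found together, which is 3.57% against 3.78% of the 3148 pairs within a genus. The 2 shares were alike at this detection limit, but the Oscillibacter share rested on the 1 pair that was among the values that chose the genus. When presence needed 5 counts, 4 member pairs were never found together. The background was not counted at that setting, so no general frequency is read from these shares.

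ASV_81 was found with either partner but in other groups. It had 0 counts in all Sham and all OVX+GEX libraries. It had 29 and 26 counts in OVX replicates 4 and 5, 94, 15 and 8 in OVX+PBS replicates 1 to 3, and 73, 49, 31, 27 and 169 in OVX+FMT replicates 1 to 5. ASV_81 was the 1 member present in all 5 OVX+FMT libraries, where its share ran from 0.285% to 0.856%, overlapping the 0% to 0.432% of OVX+PBS. It stood beside ASV_56 in 8 libraries and beside ASV_66 in 2, OVX replicate 5 and OVX+FMT replicate 5. In those 10 libraries its count was 0.337 to 0.900 times that of the partner beside it, with a median of 0.594. The 5 OVX+GEX libraries therefore shared ASV_56 with most OVX+FMT and OVX+PBS libraries without the ASV_81 that stood beside it there. Its mean of 0.448% ± 0.239 in OVX+FMT (SD, n = 5) was at least 18.4-fold higher than in Sham and at least 14.4-fold higher than in OVX+GEX, on the same floor.

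ASV_373 was found in OVX+GEX alone. It had 27 counts in replicate 1 and 42 in replicate 3, which is 0.730 and 0.494 times the ASV_56 count of the same libraries, and 0 in the other 23 libraries. With 2 libraries it did not pass the filter and was not tested.

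ASV_102 was the most widely shared member. It had 19, 24, 6, 20 and 19 counts in Sham replicates 1 to 5 and 38, 0, 6, 57 and 0 in OVX. OVX+GEX had 18, 0, 12, 5 and 0, OVX+PBS had 52, 10, 6, 0 and 32, and OVX+FMT had 22, 12, 17, 17 and 0. It occurred beside ASV_56 in 11 libraries and beside ASV_66 in 8. Its group means of 0.0726% (OVX+GEX) to 0.193% (OVX) lay within the spread of the libraries, whose SD reached 0.249 percentage points in OVX.

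The lesser frequent members did not follow the ASV_56 and ASV_66 pattern. ASV_226 was seen in 17 libraries of all 5 groups at 2 to 21 counts, among them all 5 OVX+PBS libraries. ASV_299 was seen in 12 libraries of all 5 groups at 3 to 18 counts. ASV_227 was patchy and stood beside ASV_66 in 5 of its 7 libraries, with 14 counts in Sham replicate 1, 24 and 28 in OVX replicates 1 and 2, 11 in OVX+GEX replicate 1, 16 and 26 in OVX+PBS replicates 4 and 5, and 15 in OVX+FMT replicate 3. ASV_641 was seen at 2 to 7 counts in 4 Sham libraries, OVX+GEX replicate 1 and OVX+FMT replicate 4. ASV_679, ASV_911 and ASV_925, the remaining ASVs among the 12 most abundant, had 22, 12 and 11 counts in all.

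Which ASV led the genus changed with the pair. ASV_56 was the most abundant Oscillibacter ASV in 12 libraries (5 OVX+GEX, 4 OVX+FMT and 3 OVX+PBS) and ASV_66 in 9 (4 Sham, 3 OVX, 1 OVX+PBS and 1 OVX+FMT), counting OVX replicate 1, where ASV_66 and ASV_102 tied at 38 counts. ASV_102 led in Sham replicate 5, OVX replicate 4 and OVX+PBS replicate 5, and ASV_227 led in OVX replicate 2. The leading ASV held 28.2% to 93.8% of the genus counts of its library, with a median of 50.4%. Averaged over libraries, ASV_66 made up 43.3% ± 22.4 of the genus in Sham and 39.0% ± 27.6 in OVX, and ASV_56 made up 62.9% ± 26.7 in OVX+GEX, 26.3% ± 24.5 in OVX+PBS and 38.6% ± 23.8 in OVX+FMT (SD, n = 5).

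**Figure D3:**
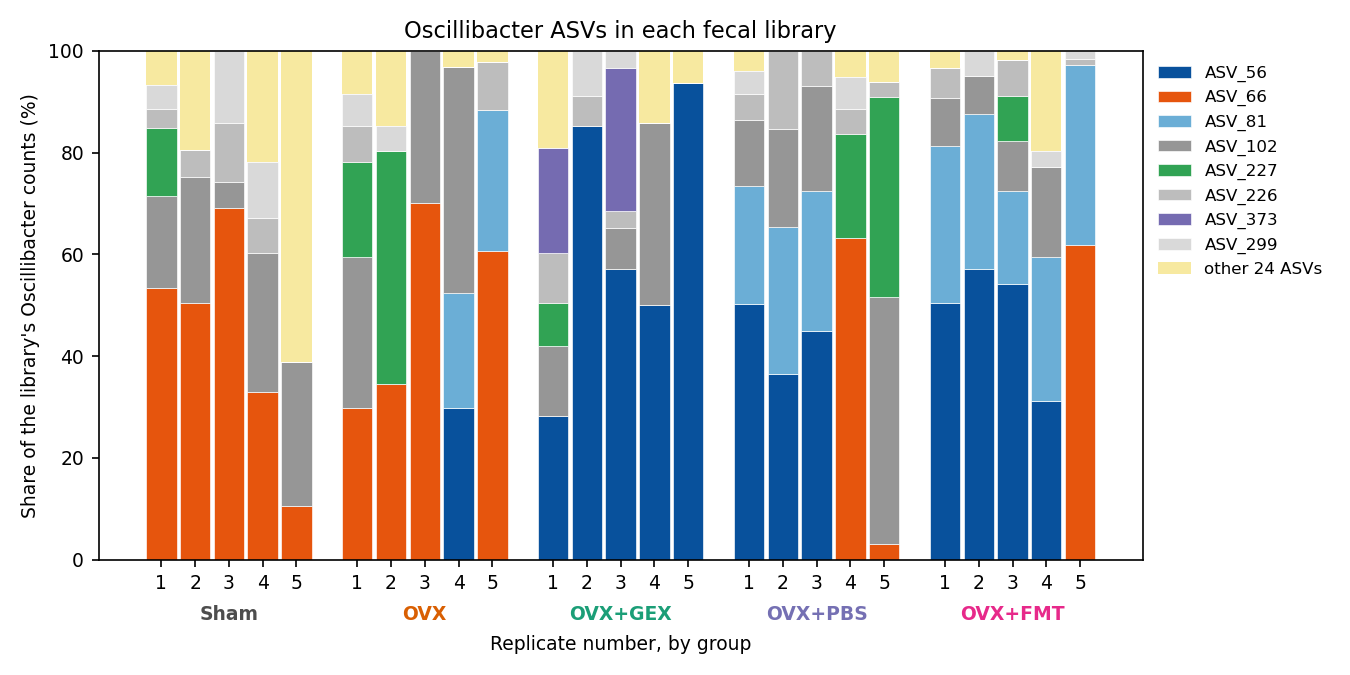
Makeup of Oscillibacter in each library, as the percent (y axis) of that library's Oscillibacter counts held by 8 named ASVs and by the other 24 together; bars are libraries, ordered by group and replicate. The orange ASV_66 fills the base of all Sham bars and the dark blue ASV_56 that of all OVX+GEX bars, with the light blue ASV_81 in 10 bars of OVX, OVX+PBS and OVX+FMT.

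Sham libraries held the most Oscillibacter ASVs. The number per library was 7.0 ± 1.87 in Sham (SD, n = 5). It was 4.6 ± 1.95 in OVX, 4.4 ± 2.79 in OVX+GEX, 5.2 ± 1.64 in OVX+PBS and 5.4 ± 1.34 in OVX+FMT, and the Sham range of 4 to 9 overlapped that of every other group. At an equal depth of 8498 reads the expected numbers were 6.90 in Sham and 4.38 to 5.30 in the others. When only values of at least 5 counted as present, Sham averaged 4.8 ASVs, the same as OVX+FMT, and the remaining groups 3.4 to 3.8. Seen over all libraries of a group, 18 ASVs occurred in Sham, 13 in OVX and 12 in each of the remaining groups. Sham had 7 ASVs that no other group held, OVX had 6, OVX+GEX had 3, and the OVX+PBS and OVX+FMT groups had 1 each. Of these, 6, 5, 2, 1 and 1, in the same order, were ASVs of 1 library, which can occur in 1 group only. The share of such group-only ASVs in the whole table was not counted, so nothing is read from these numbers. The inverse Simpson number, which counts ASVs weighted by abundance, was 3.76 ± 1.69 in Sham and between 2.67 and 2.90 in the other groups.

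The distance between libraries in their Oscillibacter makeup was built from the same ASV values. Bray-Curtis distances (0 for identical, 1 for no shared ASV) were computed from shares of the genus counts. Pairs of libraries of the same group lay 0.532 apart on average and pairs of different groups 0.687, a gap of 0.155. Among 25 genera with at least 10 ASVs and at least 10 counts in at least 20 libraries, Oscillibacter had the largest such gap, ahead of Adlercreutzia (0.121) and Solibaculum (0.120). The distance between groups itself was in the middle of the field, at rank 10 of 25. Sham and OVX+GEX libraries were the farthest apart, at a mean of 0.873 over 25 pairs and a minimum of 0.716, against means of 0.484 within Sham and 0.471 within OVX+GEX. OVX+FMT and OVX+PBS libraries lay 0.522 apart, less than the 0.638 among OVX+PBS libraries themselves. No test is attached to these distances, because they are built from the values that chose the genus. Nothing is read from the rank of Oscillibacter among the 25 genera for the same reason.

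**Figure D4:**
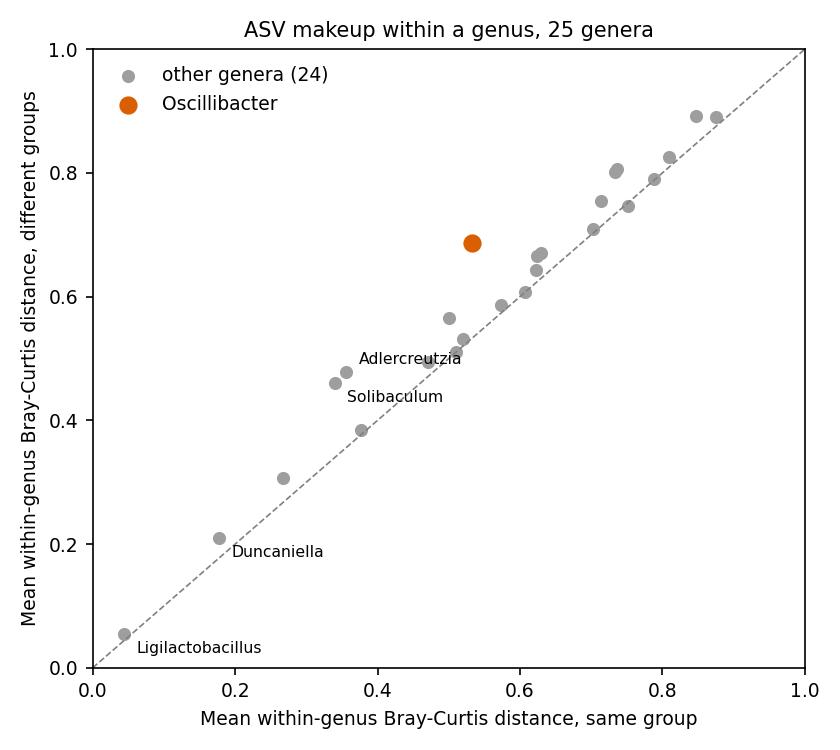
Mean Bray-Curtis distance in ASV makeup between libraries of the same group (x axis) and of different groups (y axis) for 25 genera; each point is a genus and the dashed line marks equal distances. Oscillibacter (orange) lies farthest above the line, at 0.532 and 0.687.

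The total of the genus is not fixed by which of its ASVs are present, and it was compared between groups. It is the sum of ASV shares that were in view when the genus was chosen. Its tests are therefore not independent of that choice. Oscillibacter had counts in all 25 libraries, ranked 17 of 81 tested genera by mean share, and ranged 14.6-fold, from 0.165% in OVX+GEX replicate 4 to 2.41% in OVX+FMT replicate 5. Shares are relative to the library total. A lower share can mean fewer bacteria of the genus, more of other bacteria or fewer gene copies per bacterium. These cannot be told apart. In Sham the total was 1.08%, 0.994%, 0.691%, 0.326% and 0.661% in replicates 1 to 5, a mean of 0.750% ± 0.299 (SD, n = 5). In OVX it was 1.14%, 0.551%, 0.218%, 1.26% and 0.975%, a mean of 0.829% ± 0.435. The Sham values lay inside the OVX range.

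In OVX+GEX the total was 1.23%, 0.341%, 1.68%, 0.165% and 0.297% in replicates 1 to 5, a mean of 0.742% ± 0.672 (SD, n = 5). Replicates 1 and 3, which also held ASV_373, stood above the other 3 libraries. In OVX+PBS it was 1.85%, 0.462%, 0.331%, 0.923% and 0.747%, a mean of 0.863% ± 0.600, with replicate 1 above the rest. In OVX+FMT it was 1.05%, 1.53%, 1.69%, 1.01% and 2.41%, a mean of 1.54% ± 0.570, the highest of the 5 groups. The order from high to low was OVX+FMT, OVX+PBS, OVX, Sham and OVX+GEX. The step from OVX+FMT to OVX+PBS was 0.675 points against SDs of 0.570 and 0.600, and each later step was under 0.08 points, well within the SDs, while all neighbouring ranges overlapped.

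**Figure D5:**
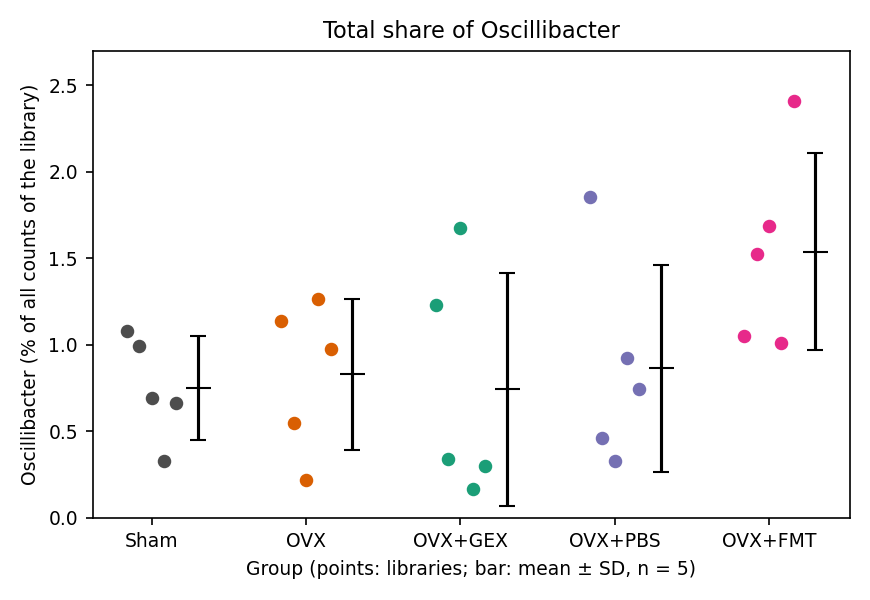
Total share of Oscillibacter in percent of all counts, by group; points are libraries and the bars give the mean ± SD (n = 5). The OVX+FMT libraries sit between 1.01% and 2.41%, and the other 4 groups have means of 0.742% to 0.863% with wide spread.

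None of the 4 comparisons moved the genus total past the threshold. edgeR's quasi-likelihood test over 81 genera gave a log2 fold change of 0.54 (SE 0.61, adjusted p = 0.872) for OVX against Sham, which asks about the operation. For OVX+GEX against OVX, which asks about the added GEX, it was -0.22 (SE 0.61, edgeR adjusted p = 0.979). For OVX+FMT against OVX+PBS, the transplant against PBS, it was 0.96 (SE 0.61, edgeR adjusted p = 0.404). For OVX+PBS against OVX it was 0.31 (SE 0.61, edgeR adjusted p = 0.888). By edgeR 0% of the genera passed an adjusted p of 0.05 in each comparison, with 9, 5, 12 and 11 genera at an unadjusted p under 0.05, in the order given, and Oscillibacter was not among them. DESeq2 and limma each called 0 or 1 genus per comparison (0% or 1.23%), never Oscillibacter. Exact two-sided permutation tests on the shares gave p = 0.738, 0.810, 0.119 and 0.937 in the same order (adjusted over the 4 comparisons 0.937, 0.937, 0.476 and 0.937). The smallest p that 5 against 5 libraries allow is 0.00794. The direction for OVX+GEX against OVX depended on the settings: without OVX+GEX replicate 4 it was 0.0074 and without OVX replicate 1 it was 0.068. The OVX+FMT estimate fell to 0.43 without OVX+FMT replicate 5.

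Of the ASVs, 8 members could be tested among 379. edgeR called 0 members in each of the 4 comparisons, where 0% of all ASVs were called, and 3, 2, 1 and 0 members had an unadjusted p under 0.05, against 65, 73, 80 and 94 ASVs in all. Limma on centred log-ratios also called 0 members, with 0.264% of all ASVs called for OVX against Sham and 0% in the other 3 comparisons. DESeq2 called 1 member, ASV_66, as lower in OVX+GEX than in OVX, where it called 2 of 375 ASVs (0.533%). It called 0 members in the other comparisons. For OVX against Sham it called 2 of 375 ASVs (0.533%). It called 6 of 143 (4.2%) for OVX+FMT against OVX+PBS and 5 of 258 (1.94%) for OVX+PBS against OVX. The number of ASVs that DESeq2 tested differed between comparisons, so its percentages do not share a base. Because the ASV values chose the genus, the counts are set beside the background and read no further. The median log2 fold change of the 8 members was 0.04, -0.79, 0.62 and 0.19 in the 4 comparisons, against -0.28, -0.07, 0.49 and -0.53 over all ASVs tested. OVX and OVX+PBS each enter more than 1 of these comparisons.

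Related clostridia, many of them fermenters of sugars and plant fiber, were followed as a list of 23 genera, made up of the remaining Oscillospiraceae and Ruminococcaceae with named relatives such as Lawsonibacter and Flavonifractor. Of these, 19 were tested. The list had 9 genera with a higher and 10 with a lower estimate for OVX against Sham, 10 and 9 for OVX+GEX against OVX, 13 and 6 for OVX+FMT against OVX+PBS, and 8 and 11 for OVX+PBS against OVX. By edgeR 0 passed the threshold in any of the 4, with 1, 0, 1 and 1 at an unadjusted p under 0.05, and DESeq2 and limma also called 0. The median log2 fold changes of the list were -0.03, 0.10, 0.67 and -0.55, close to the 0.15, 0.13, 0.62 and -0.47 of all genera. The estimate of 0.96 for Oscillibacter in OVX+FMT against OVX+PBS thus stands beside a median of 0.62 over all genera.

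The genera whose total share followed that of Oscillibacter most closely over the 25 libraries were Paludicola (Spearman rho 0.50), another Oscillospiraceae genus, the wall-less Spiroplasma (0.45), Breznakia (0.40), Anaerovorax (0.39) and Pseudoclostridium (0.33). These coefficients are the highest of 80 and serve as a description, since all shares of a library add up to the same whole. None was strong, and Paludicola averaged 0.0128% of the counts.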

How the data were processed

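Fecal DNA of 25 libraries was sequenced as full-length 16S rRNA genes. The deposited table holds whole-number counts, per the file headers, and names each ASV at up to 7 taxonomic ranks. Subread, version and role unstated, comes from the submitters' processing notes. The denoiser, the primers and the database were not given in the sources used here. No value in the table was 1, while 464 were 2, and no source used here says why. The 5 columns spelled OVX+GES were taken as OVX+GEX, and 0 columns stayed unmapped.

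Counts were summed per genus. edgeR 4.0.16 (quasi-likelihood F test, TMM scaling, R 4.3.3) was fitted to all 25 libraries with group as the only term, on genera and separately on ASVs with 3 or more counts in 5 or more libraries, and p-values were adjusted by the Benjamini-Hochberg method over everything tested, with a threshold of 0.05. The scripts were tested on simulated data. Alternatives used DESeq2 1.42.0, limma 3.58.1 on centred log-ratios (0.5 added), other scalings, filters and libraries, and exact permutation of shares. Presence, shares, pairs of ASVs and Bray-Curtis distances were described without a test. The text names the 12 ASVs of highest mean share and any other ASV that led a library or was seen in every library of a group and none of another, with the 5 genera of most similar share. The members and lists were chosen with earlier results of these data known.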

Additional observations from a re-analysis of the deposited data

Results flagged for a closer look

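In groups of 5 libraries, 52 sets of values (ASV shares, ASV numbers and genus totals) were examined for a library far from the rest. The measure was its gap to the nearest other library over the whole range (above 0.71 for 5 libraries). Of these, 17 stood out, none of them a genus total. In 14 of them the other 4 libraries were at 0, so that any presence stands out by construction, and the rate of about 1 in 20 that chance gives for such a rule has no meaning there. The shares also chose the genus, so the values below are a description. For the pair never found together, ASV_56 stood out in OVX replicate 4 (0.375%) and OVX+PBS replicate 1 (0.929%), and ASV_66 in OVX+PBS replicate 4 (0.584%) and OVX+FMT replicate 5 (1.49%). ASV_227 did so in Sham replicate 1 (0.144%), OVX+GEX replicate 1 (0.103%) and OVX+FMT replicate 3 (0.149%). ASV_641 stood out in OVX+GEX replicate 1 (0.0282%) and OVX+FMT replicate 4 (0.0738%). ASV_679 did so in Sham replicate 5 (0.0395%), OVX+GEX replicate 1 (0.0564%), OVX+PBS replicate 1 (0.0276%) and OVX+FMT replicate 4 (0.0633%). ASV_911 stood out in Sham replicate 5 (0.118%), and ASV_925 in Sham replicate 2 (0.0512%) and OVX+FMT replicate 4 (0.0633%). OVX+PBS replicate 1 held 8 Oscillibacter ASVs, against 4 or 5 in the other libraries of its group.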

How the results depend on the processing

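The genus total passed the threshold under no alternative run, and its direction held in 3 of the 4 comparisons. For OVX+GEX against OVX the log2 fold change of -0.22 turned to 0.0015 with no filter and to 0.092 with a filter of 10 counts in 5 libraries, and leaving out 1 library at a time gave -0.62 to 0.068, above 0 without OVX replicate 1 or OVX+GEX replicate 4 (0.0074); the cause was not tested. Leaving out libraries gave 0.33 to 0.86 for OVX against Sham, 0.43 to 1.23 for OVX+FMT against OVX+PBS and 0.04 to 0.60 for OVX+PBS against OVX. Scaling by plain totals shifted the median genus in 3 comparisons: OVX against Sham, 0.15 to -0.22, OVX+GEX against OVX, 0.13 to -0.03, and OVX+PBS against OVX, -0.47 to -0.65. DESeq2 size factors lowered the median genus of OVX+FMT against OVX+PBS, 0.62 to 0.35, and raised that of OVX+PBS against OVX to -0.26. The labels do not say that replicate numbers pair the libraries. Deviations of same-numbered libraries correlated at 0.091 to 0.20 for OVX+GEX against OVX, where 4 of 5 were over 0.1, and at -0.29 to 0.20, with mixed signs, in the other 3 comparisons, so the numbers were not taken as pairs. With a replicate block the genus changed by 0.53, -0.22, 0.93 and 0.24 in the order OVX against Sham, OVX+GEX against OVX, OVX+FMT against OVX+PBS and OVX+PBS against OVX, with 0 members called. The number of members called was 0 under all settings other than the DESeq2 Wald test, which called 1 for OVX+GEX against OVX; TMMwsp and DESeq2 size factors in the ASV fit were added after seeing the data. Pairs of members never found together numbered 4 instead of 1 when presence needed 5 counts, and 1 to 2 when a library was left out, with 2 without OVX+FMT replicate 3 or replicate 4. ASV_56 and ASV_66 were together in 0 libraries under every setting, while 24 libraries held exactly 1 of them when presence needed 5 counts, since OVX+PBS replicate 5 had 2 counts of ASV_66. The gap in distance between and within groups ranged from 0.136 to 0.187. Depth limits the rare members most: in the smallest library, of 8498 counts, the floor of 3 counts is a share of 0.0353%.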

Other observations

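Outside the genus, the ASVs whose presence most resembled that of the pair ASV_56 and ASV_66 were looked up after the values were seen. ASV_66 was matched by ASV_100, named Kineothrix alysoides, a butyrate-forming member of the Lachnospiraceae, which was present or absent in the same way in 21 of 25 libraries. ASV_86, named as Clostridium scindens, known for converting bile acids, matched it in 20. ASV_56 was matched best by ASV_133, named Adlercreutzia equolifaciens, which is known for turning soy isoflavones into equol, and by ASV_172, named Christensenella massiliensis, in 19 libraries each. The closest match of ASV_81 was ASV_470, named Lawsonibacter asaccharolyticus, in 21 libraries. ASV_102, seen in 19 libraries, was matched in 21 by ASV_23 (Acetivibrio straminisolvens) and ASV_83 (Ihubacter massiliensis). ASV_23 was seen in 21 libraries and ASV_83 in 23. ASVs that are each present in most libraries must match in many of them. All of these matches are the best of many compared, so they carry no test.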
